A study of Alligator mississippiensis with 17 samples.

Results

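In the dental lamina of the American alligator (Alligator mississippiensis), 96 named genes were at their highest before a new tooth starts to form. They were chosen from the deposited expression values, RPKM, which are read counts scaled to the length of the gene and to the size of the library. A gene was taken when its median in pre-initiation lamina was at least 4 RPKM and at least 2 times its median in each of the other 3 groups. Of 20703 rows in the table, 118 (0.57%) met this rule, among them 0.749% of the 13879 rows with a gene symbol. Of the 118, 14 carry only a model identifier, and 8 are well-known muscle, vessel, glial or fat cell markers that were set aside (MYH11, SOX10 and others), which left the 96. Because the values of all 4 groups chose the genes, their excess in pre-initiation lamina is described here and not tested.

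Bulk RNA sequencing was done on tissue dissected from animals 1 year old, raised in the laboratory at 30 degrees and untreated. Dental lamina was taken at 3 stages of the tooth cycle: pre-initiation (PIS, 5 libraries), initiation (IS, 3 libraries) and early growth (EG, 4 libraries). Replacement teeth (RT) gave 5 further libraries. No genotype, sex or agent distinguishes the groups in the labels, and whether replicates of a group come from different animals is not stated there. The p-values below therefore describe the spread between these libraries, which may be technical. In dissected tissue, fewer cells of a type and less RNA per cell cannot be told apart.

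The dental lamina is an epithelial strand that runs from the oral lining to the base of a developing tooth, and in reptiles it holds the cells from which successive teeth bud. The strand itself has no vessels or nerves, which lie in the connective tissue around it. That tissue also holds fibroblasts, which lay down matrix and secrete antagonists of WNT and BMP signalling, the pathways that control tooth budding. Schwann cells wrap the axons of peripheral nerves and are known in mammals to be present near growing teeth.

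Libraries held 9667270 to 37747400 alignments, with the shallowest at PIS 3. PIS 5 stood apart from the other PIS libraries: the summed RPKM of 18 oral and dental epithelium genes was 218 in PIS 5 and 661 to 914 in the other 4. Its red blood cell sum (7 genes) was 265, against 9.47 to 24.1 in the other 4. No epithelial list gene was at 0 in all PIS libraries, so the epithelium named by the labels was detected. KRT14, the basal keratin, was at 81.8, 95.5, 209, 189 and 26.6 RPKM in PIS 1 to 5. RT 3 was low for the same list (200.1, against 618 to 932 in the other RT libraries), and RT 5 held the highest cartilage and bone sum, 3757 against 262 to 1128.

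The description of pre-initiation lamina as resting was checked against cell cycle genes. The summed RPKM of 27 cell cycle genes was 124 to 194 in PIS, 303 to 488 in IS and 313 to 471 in EG, so PIS did not overlap either later lamina stage. RT, at 137 to 348 RPKM, did overlap PIS. None of the 27 had its highest group median in PIS. Cell cycle brakes and quiescence genes did not mark the stage: 0 of 21 met the median rule, and their summed median was 607 RPKM in PIS and 1202 RPKM in IS. Their sums overlapped, at 533 to 1006 RPKM in PIS and 448 to 1274 RPKM in IS, where IS 1 lay below every PIS library. None of the 18 epithelium genes met the rule either, and their summed level in every PIS library lay below every IS library (965 to 1197).

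The 96 genes spanned PIS medians from 4.07 to 708 RPKM, with a middle value of 9.49. The ratio of the PIS median to the next highest group median ran from 2.01 to 6.53, with a middle value of 2.51, and was at least 3 in 28 genes and at least 4 in 8. The edge of the set was gradual. Just inside the ratio lay FGD5, an activator of the small GTPase CDC42 in endothelium (4.07 RPKM in PIS against 2.03), and the angiopoietin receptor TEK (5.70 against 2.82). Just outside lay the transcription factor EBF1 (11.1 against 5.56) and the angiopoietin ANGPT2 (11.5 against 5.80). The neural adhesion gene CADM3 missed only the level, at 3.99 RPKM and a ratio of 3.89.

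By known roles, 13 of the genes belong to nerve and glia, 22 to the lining of vessels, 8 to contractile cells and the vessel wall, 14 to matrix and other secreted proteins, 9 to signals and receptors, and 3 to lipid transport. The other 27 were given no role. In 41 of the 96 every PIS library lay above every other library, which 1.13% of all 12904 genes tested also showed. Since the rule used this contrast, nothing is read from that difference.

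Medians stood in the order PIS, IS, EG for nearly all of the genes. The rule used these group medians, so the counts and percentages in this paragraph are description only. Among IS, EG and RT, IS had the highest median in 85 of 96, and in 39.5% of all genes tested. The EG median was below the IS median in 92 of 96, against 43.5% of all genes tested. The middle gene stood at 39.1% of its PIS median in IS, at 24.7% in EG and at 18.0% in RT. RT was the lowest of the 3 other groups for 68 of the genes (70.8%, against 72.2% of all genes tested) and EG for 27 (28.1%, against 7.34%).

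**Figure D1:**
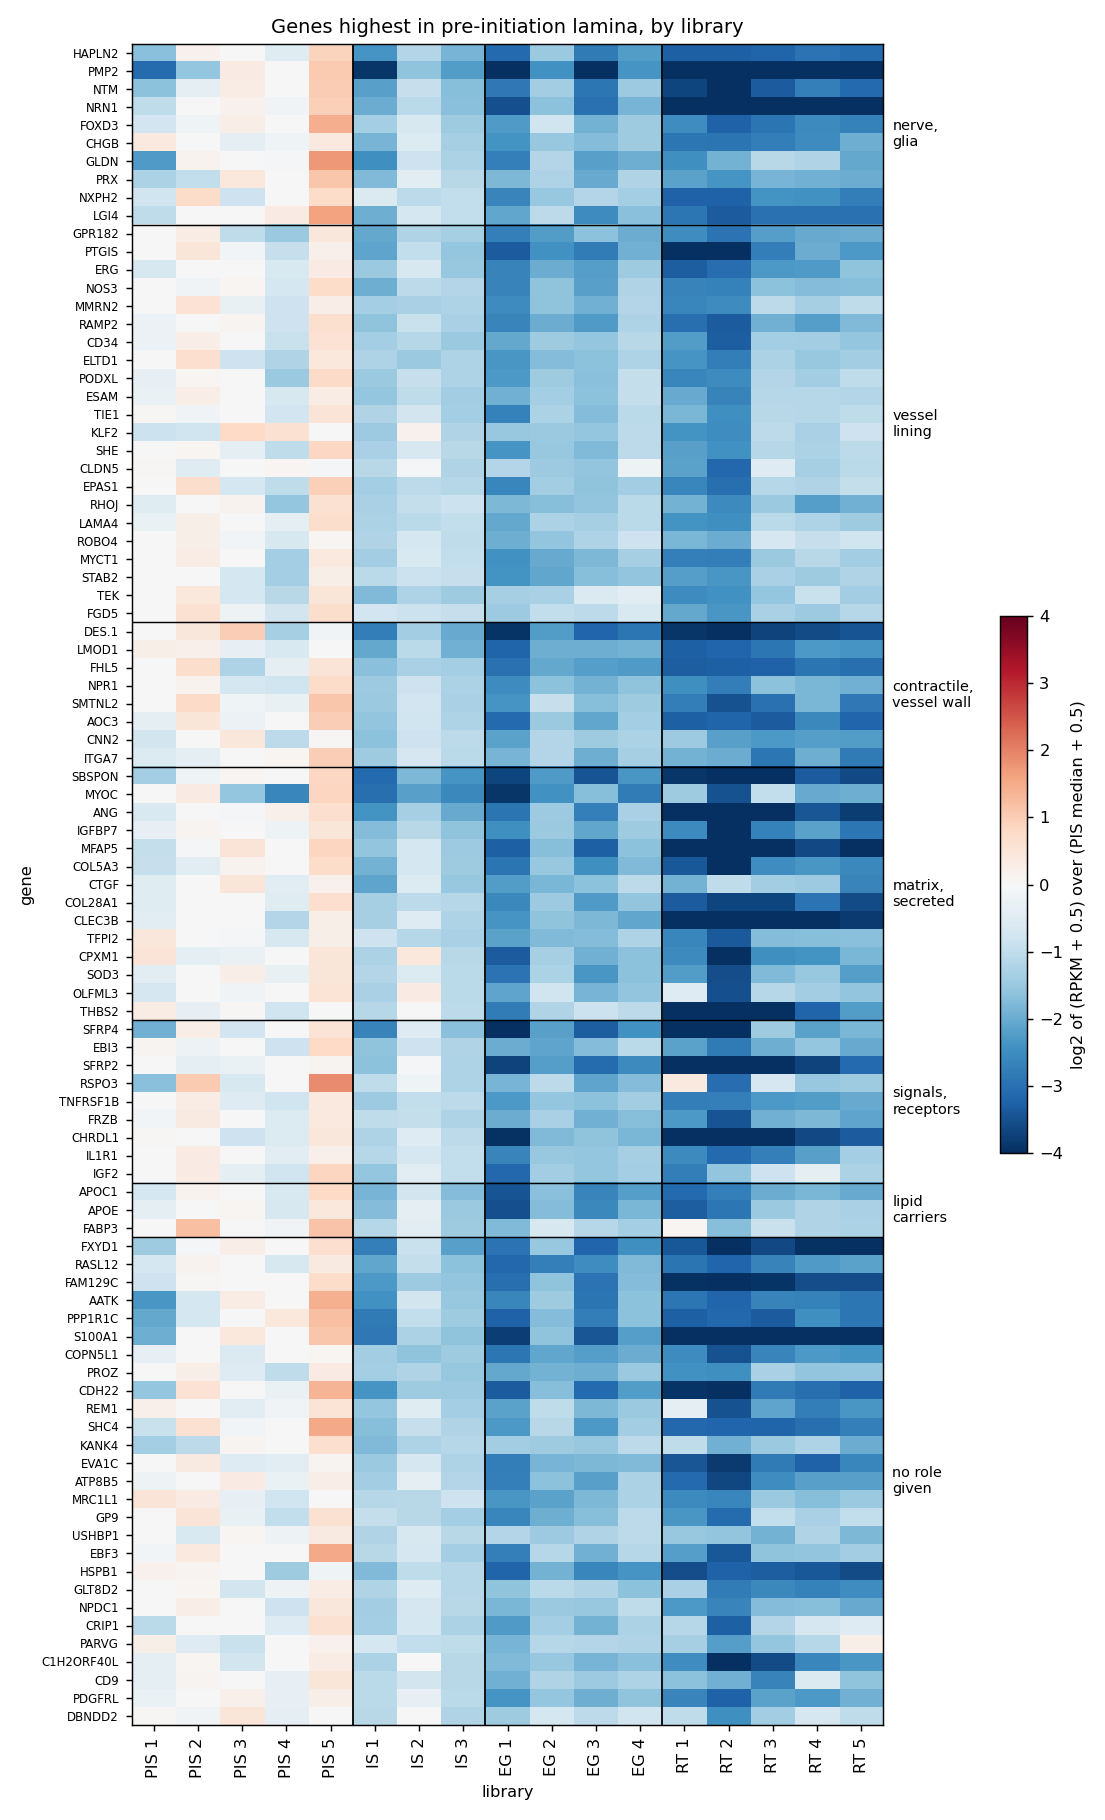
Each row is 1 of 93 of the 96 genes and each column 1 library, coloured by the log2 of (RPKM + 0.5) over (PIS median + 0.5), with genes grouped by role. The PIS columns are mostly near 0 or above, PIS 5 is the most red, and the RT columns are darkest blue for PMP2, NRN1, CLEC3B and S100A1, among others.

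Within a group, many of the genes were high or low in the same libraries. The rule used the values of these libraries, so the counts in this paragraph are description only. PIS 5 was the highest PIS library for 73 of the 96 genes and the lowest for 0, where it was the highest for 18.2% and the lowest for 36.7% of all genes tested. PIS 4 was the lowest for 43 genes and PIS 1 for 39, against 15.9% and 12.7% of all genes tested. Among IS libraries, IS 2 was the highest for 84 genes (28.1% of all genes tested). Among EG libraries, EG 4 was the highest for 51 and EG 2 for 40, against 20.9% and 20.6% of all genes tested. EG 1, the highest for 42.0% of all genes tested, was the highest for none.

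Marker levels shifted in some of the same libraries. PIS 5 had the lowest epithelium sum of the PIS libraries and the highest sums of the endothelial list (493.5), the smooth muscle and mural list (955) and the nerve and Schwann list (673). IS 2 had the lowest epithelium sum of the IS libraries (965) and the highest endothelial sum (243), and EG 2 the lowest epithelium sum of EG (1079). EG 4, the highest EG library for most of the genes, had the highest epithelium sum of EG (1481) and the highest endothelial sum (233). The part of tissue makeup in the ratios of the 96 genes was not tested. Without PIS 5 the rule gave 71 genes, of which 65 were among the 96; without PIS 4 and PIS 5 it gave 91, of which 78 were among them. After median-ratio scaling, which sets the typical gene equal across libraries, 176 genes met the rule, with 94 of the 96 among them.

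**Figure D2:**
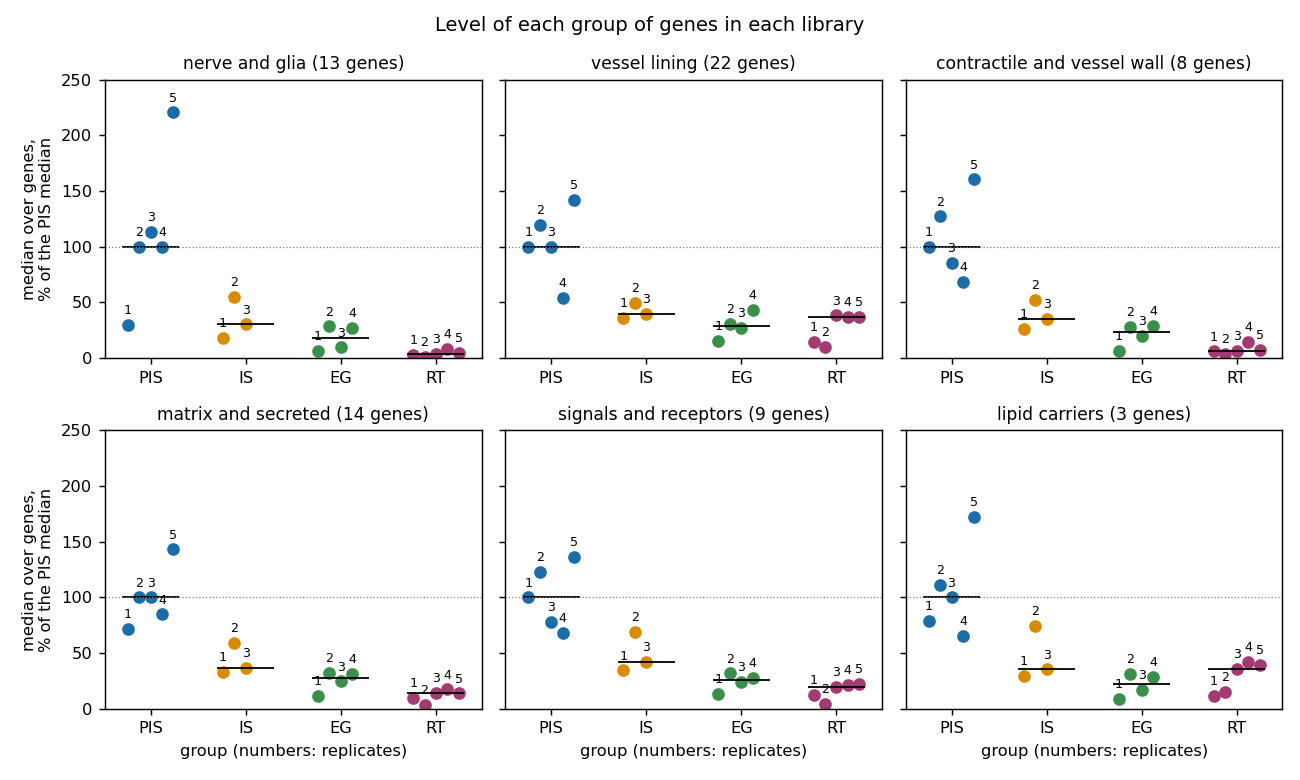
Each panel is 1 role, each point 1 library (the number is its replicate), and the vertical axis is the median over genes of the RPKM as a percent of the gene's PIS median, with black lines at group medians. Nerve and glia genes ranged from 29.6% in PIS 1 to 221% in PIS 5 and were at 8.34% or less in every RT library, while vessel lining genes were between 10.4% and 38.4% in RT.

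The nerve and glia role, assigned by hand, included genes of Schwann cells, of nerve cells and of the neural crest. Among them were PMP2 (a lipid-binding protein of peripheral myelin), PRX (needed to keep peripheral myelin in mice), GLDN and LGI4 (secreted by Schwann cells), FOXD3 (a neural crest transcription factor), HAPLN2 (a link protein of the matrix around nodes of Ranvier), NTM, NRN1, CHGB and NXPH2. They varied the most among PIS libraries, the middle gene by 7.34 times between the highest and the lowest library, against 2.37 to 3.16 times for the other roles.

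NTM, or neurotrimin, is an adhesion protein of nerve cells. It was at 2.63, 7.2, 11.6, 9.29 and 19.3 RPKM in PIS 1 to 5, at 1.67, 4.72 and 2.5 RPKM in IS 1 to 3, at 0.851, 3.25, 0.826 and 3.1 RPKM in EG 1 to 4, and at 0.267, 0.110, 0.485, 0.972 and 0.632 RPKM in RT 1 to 5. PIS and IS overlapped for this gene, because PIS 1 lay below IS 2, and RT 4 lay above EG 1 and EG 3.

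PMP2 was at 3.82, 12, 45.4, 35.8 and 75.0 RPKM in PIS 1 to 5, at 1.95, 11.5 and 7.21 RPKM in IS, and at 1.05, 6.33, 0.904 and 6.55 RPKM in EG. It was listed at 0 in RT 1, 2 and 3 and at 0.672 and 0.688 RPKM in RT 4 and 5. As for NTM, PIS 1 was the low PIS library, PIS 5 the high one, and EG 1 and EG 3 were the low EG libraries. As means, PMP2 was 34.4 ± 28.3 RPKM in PIS (SD, n = 5), 6.88 ± 4.78 in IS (n = 3) and 3.71 ± 3.16 in EG (n = 4).

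NRN1, or neuritin, promotes the outgrowth of neurites. It was at 4.75, 10.2, 11.5, 9.27 and 20.2 RPKM in PIS 1 to 5, at 2.18, 4.51 and 2.84 RPKM in IS, at 0.435, 2.88, 0.839 and 2.46 RPKM in EG, and listed at 0 in 3 RT libraries (0.131 and 0.0807 RPKM in RT 4 and 5). All PIS values exceeded all others. FOXD3 was at 2.57, 4.15, 5.73, 4.69 and 13.7 RPKM in PIS 1 to 5, with RT at 0.0491 to 0.425 RPKM.

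In RT, the median of 11 of these 13 genes was under 0.5 RPKM, against 0 of the 22 vessel lining genes. It was under 0.5 RPKM in 27 of the 96 genes and in 4.27% of all genes tested. GLDN was the exception in direction, with a median of 3.12 RPKM in RT and 2.67 RPKM in EG. PRX had a median of 1.84 RPKM in RT. HAPLN2 had a ratio of 5.27 but a PIS median of only 4.28 RPKM.

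The vessel lining genes covered receptors, junctions and transcription factors of endothelium. Among them were the receptors TEK, TIE1 and ROBO4, the receptor accessory protein RAMP2 and the junction proteins CLDN5 and ESAM. The transcription factors ERG, EPAS1 and KLF2 and the enzymes NOS3 and PTGIS (which make nitric oxide and prostacyclin) were also among them. So were the sialomucins CD34 and PODXL, the laminin chain LAMA4, MMRN2 and the scavenger receptor STAB2. The vessel lining genes had moderate ratios, from 2.01 to 3.09. They varied less among PIS libraries than the glial genes did, and PIS 4 was the low library (54.0% of the PIS median for the middle gene) and PIS 5 the high one (142%).

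ERG, a transcription factor that keeps endothelial identity, was at 8.52, 13.4, 13.7, 8.59 and 17 RPKM in PIS 1 to 5. It was at 4.44, 8.41 and 4.39 RPKM in IS, 1.69, 3.03, 2.55 and 4.71 RPKM in EG and 0.906, 1.18, 2.34, 2.43 and 4.11 RPKM in RT. Every PIS library lay above every other library, though PIS 1 exceeded IS 2 by little. IS 2 was the high IS library and EG 4 the high EG library.

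TIE1, a receptor tyrosine kinase of endothelium, was at 9.03, 7.98, 8.82, 4.97 and 12.7 RPKM in PIS 1 to 5, at 3.53, 5.07 and 3.17 RPKM in IS and at 0.944, 3.36, 2.30 and 3.92 RPKM in EG. In RT it was at 2.1, 1.22, 3.78, 3.72 and 4.08 RPKM. PIS 4 lay just below IS 2, and the RT values spread over the range of EG. CD34 did not overlap, with PIS at 25.8 to 72.4 RPKM above IS at 16.9 to 21.8, EG at 11.4 to 22.2 and RT at 4.44 to 18.5 RPKM. CLDN5 overlapped more, since IS 2 (15.9 RPKM) and EG 4 (14.4 RPKM) reached the PIS range of 11.7 to 17.6 RPKM.

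KLF2, a transcription factor induced in endothelium by blood flow, was at 29.0, 30.3, 92.6, 80.9 and 53.2 RPKM in PIS 1 to 5 and at 19.0, 59.7 and 23 RPKM in IS. Its high libraries, PIS 3, PIS 4 and IS 2, were also high for the sum of 22 immediate early genes, which was 3895, 3440 and 5248 RPKM there and 175 to 612 RPKM in the other PIS libraries. IS 3, at a sum of 3391 RPKM, was not high for KLF2, which is itself on that list. The part of that list's level in the ratio of KLF2 was not tested.

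The contractile and vessel wall genes had some of the highest ratios. LMOD1, the smooth muscle leiomodin that nucleates actin filaments, was at 8.57, 8.47, 5.66, 4.59 and 7.29 RPKM in PIS 1 to 5, at 1.39, 3.19 and 1.57 RPKM in IS, at 0.341, 1.5, 1.52 and 1.61 RPKM in EG, and at 0.316 to 1.08 RPKM in RT. All PIS libraries exceeded all others, and unlike most of the genes LMOD1 was highest in PIS 1. The desmin entry DES.1, an intermediate filament gene of muscle cells, was at 8.38, 11.6, 17.1, 3.03 and 7.60 RPKM in PIS, at 0.817, 2.92 and 1.72 RPKM in IS and at 1.38 RPKM or less in EG. Its lowest PIS library, PIS 4, was only just above IS 2. AOC3, an amine oxidase of vessel walls, NPR1, a natriuretic peptide receptor, FHL5, SMTNL2, CNN2 and ITGA7 had PIS medians of 4.86 to 7.65 RPKM and ratios of 2.26 to 3.04. None of the 8 had an RT median at or above its EG median, which only 18.5% of all genes tested had.

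**Figure D3:**
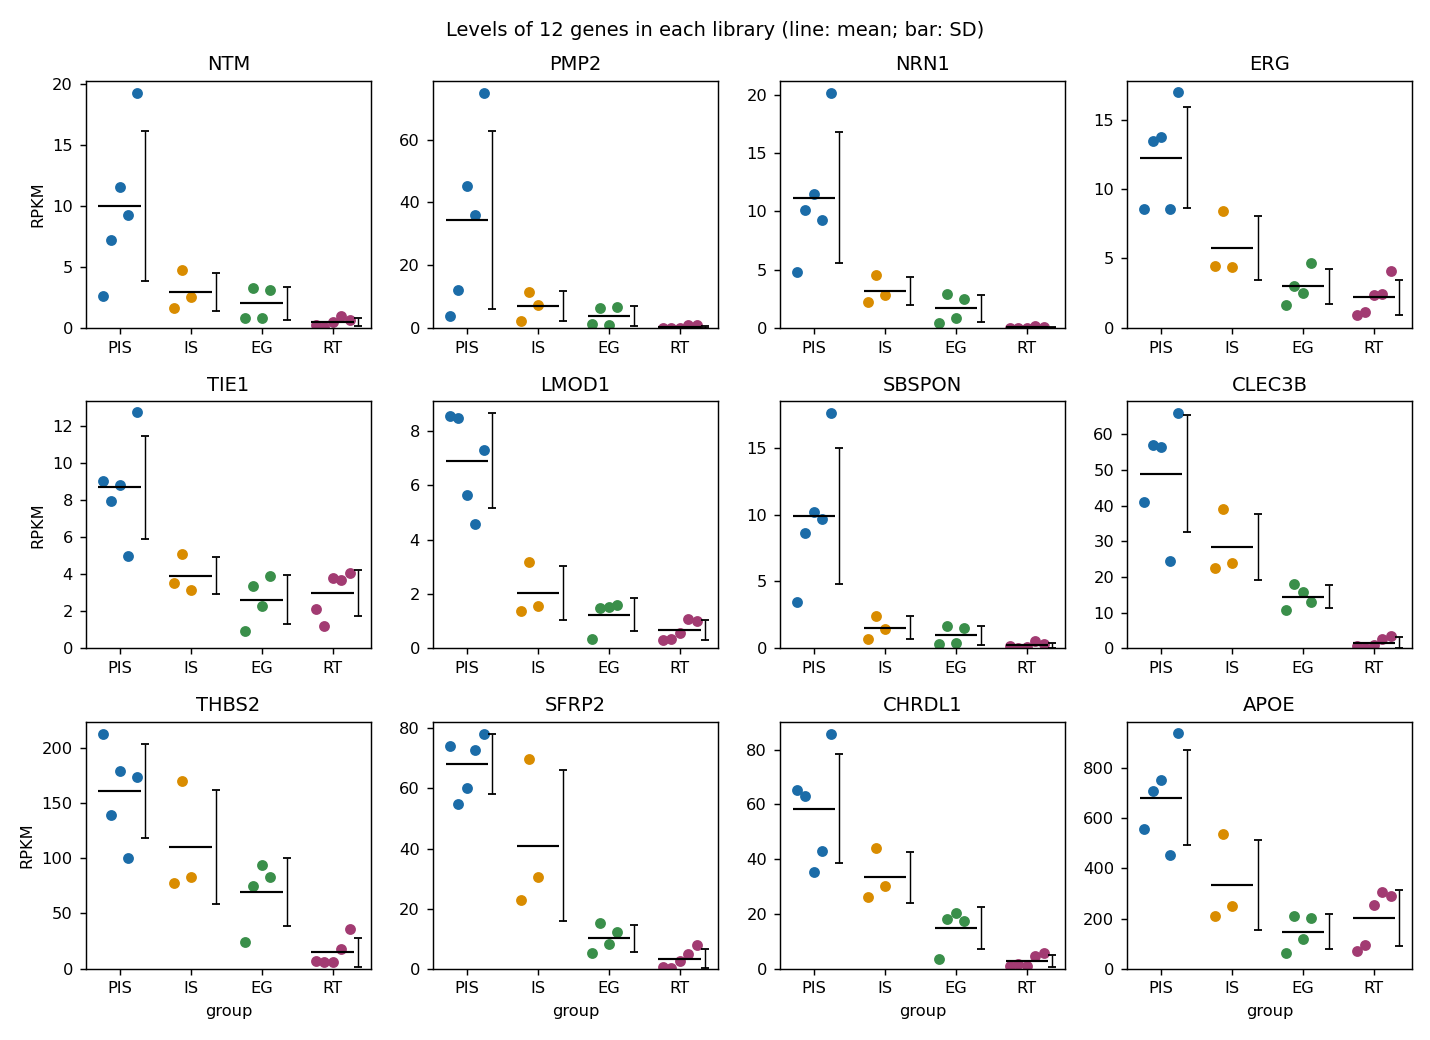
RPKM of 12 genes in each library, with points coloured by group, a line at the group mean and a bar for the SD. PMP2 spreads widely within PIS (3.82 to 75.0 RPKM), LMOD1 and NRN1 show no overlap of PIS with any other group, and APOE in RT 3, 4 and 5 (252 to 305 RPKM) lies above all EG libraries.

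The matrix and secreted genes included the greatest ratio of all. SBSPON, a secreted protein with somatomedin B and thrombospondin domains, was at 3.43, 8.62, 10.2, 9.69 and 17.6 RPKM in PIS 1 to 5, at 0.686, 2.41 and 1.48 RPKM in IS and at 0.305, 1.64, 0.434 and 1.51 RPKM in EG. It was at 0.0442 to 0.523 RPKM in RT. No other library reached the lowest PIS library, and the library order within PIS, IS and EG was that of the glial genes, with PIS 1, IS 1, EG 1 and EG 3 low.

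ANG, the ribonuclease angiogenin, was at 9.79, 15.3, 14.7, 17.6 and 24.7 RPKM in PIS 1 to 5, at 2.55, 5.83 and 3.45 RPKM in IS, at 1.59, 5.28, 1.88 and 5.95 RPKM in EG and at 0 to 0.993 RPKM in RT. Its groups were distinct except for IS and EG, whose values intermixed. IGFBP7, a secreted protein of vessel basement membranes, was at 53.5 to 94.6 RPKM in PIS, 20.2 to 31.0 in IS, 11.9 to 25.3 in EG and 0.982 to 14.9 in RT. MYOC, or myocilin, was the most uneven of the group: 13.3, 17, 4.28, 1.79 and 24.6 RPKM in PIS 1 to 5, so that PIS 3 and PIS 4 lay within the range of RT (0.727 to 6.52 RPKM).

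THBS2, a matrix thrombospondin, was at 213, 139, 179, 99.9 and 173 RPKM in PIS 1 to 5, at 77.5, 169.8 and 83.0 RPKM in IS, at 24.5, 74.5, 94.2 and 83.0 RPKM in EG, and at 7.15, 6.28, 6.04, 18.3 and 36.1 RPKM in RT. IS 2 reached the PIS range, and of the RT libraries RT 5 alone exceeded EG 1. CLEC3B, the plasminogen-binding protein tetranectin, was at 41.0, 57.2, 56.5, 24.6 and 66.0 RPKM in PIS, at 22.4, 39.1 and 23.9 RPKM in IS, at 10.7, 18.2, 15.9 and 13 RPKM in EG and at 0.180 to 3.53 RPKM in RT. CLEC3B did not overlap between IS and EG or between EG and RT. COL28A1, a collagen found around peripheral nerves in mice, and MFAP5, a microfibril protein, had PIS medians of 9.25 and 8.87 RPKM and RT medians of 0.307 and 0.0276 RPKM.

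CPXM1, an inactive carboxypeptidase of the matrix, was the most abundant of the matrix genes, with medians of 276 RPKM in PIS, 127 in IS, 80.2 in EG and 49.4 in RT. OLFML3, a secreted olfactomedin protein, and CTGF, a matricellular growth modulator, did not have a lower median in RT than in EG, with medians of 31.7 and 39.4 RPKM for OLFML3 and 8.41 and 10.3 RPKM for CTGF in EG and RT.

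Among signals, 3 of the 19 measured WNT antagonists met the rule: SFRP2, SFRP4 and FRZB, secreted proteins that bind WNT ligands. SFRP2 was at 74.2, 54.7, 60.3, 72.6 and 78.2 RPKM in PIS 1 to 5. It was at 23, 69.6 and 30.4 RPKM in IS, at 5.17, 15.3, 8.16 and 12.1 RPKM in EG and at 0.622, 0.412, 2.58, 5.06 and 7.95 RPKM in RT. IS 2 lay within the PIS range, and every EG library lay below every IS library. SFRP4 was less even, at 9.14 to 53.8 RPKM in PIS, with group medians of 36.3, 11.1, 4.79 and 7.88 RPKM in PIS, IS, EG and RT. FRZB was at 6.74 to 13.2 RPKM in PIS and below 5 in every other library, with group medians of 9.98, 4.74, 2.50 and 1.95 RPKM. The WNT antagonist list as a whole did not share the step from PIS to IS: its summed RPKM was 593 to 814 in PIS and 685 to 841 in IS. Its sum was lower without overlap in EG (487 to 585 RPKM) and again in RT (250 to 345 RPKM).

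CHRDL1, which binds BMPs and blocks them, was the only 1 of 21 BMP and TGF-beta antagonists to meet the rule. It was at 65.2, 63.0, 35.4, 42.9 and 85.8 RPKM in PIS 1 to 5, at 26.4, 44.0 and 30.1 RPKM in IS, at 3.60, 18.1, 20.3 and 17.3 RPKM in EG and at 1.15, 1.62, 1.005, 4.71 and 5.80 RPKM in RT. PIS 3 and PIS 4 overlapped with IS 2, EG lay below IS throughout, and RT 4 and RT 5 exceeded EG 1. RSPO3, a secreted enhancer of WNT signalling, was the only 1 of 24 WNT ligands and activators to meet the rule. It was uneven, at 0.954, 9.13, 2.46, 4.15 and 16.8 RPKM in PIS, and RT 1 at 5.64 RPKM exceeded 3 of the 5 PIS libraries. IGF2, a growth factor, was the only 1 of 43 growth factors and hormones to do so, with medians of 15.5, 7.61, 5.30 and 6.23 RPKM in PIS, IS, EG and RT. The cytokine receptors TNFRSF1B and IL1R1 and the cytokine subunit EBI3 had ratios of 2.05 to 2.61.

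APOE and APOC1, apolipoproteins that carry lipid, were the most abundant genes of the set and lie next to each other in the RefSeq gene table (assembly rAllMis1). APOE was at 556, 708, 752, 451 and 938 RPKM in PIS 1 to 5, at 211, 537 and 250.1 RPKM in IS, at 61.5, 210.2, 119 and 200.5 RPKM in EG and at 72.1, 94.4, 252, 305 and 290.3 RPKM in RT. RT 3, 4 and 5 were above every EG library, and RT 1 and 2 were not. APOC1 was at 183, 335, 302, 197 and 519 RPKM in PIS, at 82.7, 183 and 90.3 RPKM in IS, at 27.4, 95.0, 48.2 and 65.4 RPKM in EG and at 34.9, 45.3, 75.6, 83.9 and 73.7 RPKM in RT. The third lipid carrier, the fatty acid-binding protein FABP3, had a PIS median of 14.5 RPKM and a ratio of 2.30. All 3 had an RT median at or above the EG median, as did 27 of the 96 genes and 18.5% of all genes tested.

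Of the genes without a role, FXYD1, a regulator of the sodium pump, had the greatest ratio, 5.43. It was at 3.67, 10.2, 12.8, 10.7 and 17.4 RPKM in PIS 1 to 5 and at 1.17, 5.52 and 1.97 RPKM in IS, so that PIS 1 lay below IS 2. The most abundant were the table's C1H2ORF40L, CD9 (a tetraspanin), CRIP1 and PDGFRL, at PIS medians of 214, 213, 133 and 120.5 RPKM. S100A1, a calcium-binding protein, had medians of 22.0 RPKM in PIS, 6.92 in IS, 2.99 in EG and 0.176 in RT. DBNDD2 lay nearest the edge, at 6.76 RPKM in PIS and 3.35 RPKM in EG.

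The differences between EG and IS and between RT and EG were tested, since the rule does not contrast IS, EG and RT with each other. It does set an upper limit on all 3 medians, which leaves out genes that are high in EG or RT, so the counts of higher genes and the direction of the differences are in part fixed by the choice and are given as description. EG was compared with IS by limma on log2(RPKM + 0.5), a scale on which folds of low genes are understated, with Benjamini-Hochberg adjustment over 12684 genes. Of the 96 genes, 2 fell and 0 rose, where 2.15% of all genes tested changed, 0.512% downward and 1.64% upward. At an unadjusted limma p under 0.05, 29 were lower and 0 higher. The share of all genes at that unadjusted limit was not computed, so nothing is read from this count. All 96 passed the filter of at least 1 RPKM in 3 libraries, and 94 did so on the IS and EG libraries alone. The differences were nearly all in 1 direction, below 0 for 94 of the 96, with a median of -0.60 against 0.05 for all genes tested. In 23 of the 96, all EG libraries lay below all IS libraries, as they did in 8.71% of all genes tested.

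SFRP2 was lower in EG than in IS by a log2 difference of -1.90 ± 0.36 (SE; limma adjusted p = 0.0180), as the values above show. PDGFRL, a gene related to the PDGF receptors, was at 57.2, 96.9 and 57.4 RPKM in IS and at 22.9, 40.5, 31.0 and 38.8 RPKM in EG, without overlap. Its log2 difference was -1.06 ± 0.23 (limma adjusted p = 0.0329). Both calls rested on single libraries. Without IS 2, IS 3, EG 1 or EG 3 neither passed, with limma adjusted p for SFRP2 of 0.0877, 0.0525, 0.0512 and 0.0637, and PDGFRL was lost as well without IS 1 (0.0567) or EG 4 (0.0515). After median-ratio scaling, 0.511% of all genes tested were lower and 1.31% higher (1.82% in all), and 1 of the 96 was lower. By limma on the scaled values, SFRP2 kept its call (-1.94, adjusted p = 0.0283) and PDGFRL did not (-1.11, adjusted p = 0.0606).

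RT is labelled replacement tooth and not a lamina stage, so its differences from EG are not a course over time in the lamina. Between EG and RT, 28 of the 96 genes were lower in RT and 0 were higher by limma over 12904 genes. At an unadjusted limma p under 0.05, 36 were lower and 0 higher, again without a computed share over all genes. All 96 passed the filter, but only 76 did so on the EG and RT libraries alone, and a fit of those 2 groups called 17 lower. The others passed only with PIS or IS libraries counted. As deposited, 39% of all genes tested were lower in RT and 4.89% higher (43.9% in all), and the median gene was at -0.37, so the whole table was shifted. After median-ratio scaling, with the median gene at -0.01, 9 of the 96 were lower and 0 higher, against 6.37% and 9.38% of all genes tested. All RT libraries lay below all EG libraries in 16 of the 96 and in 30.4% of all genes tested. The count of 28 also rested on single libraries: it was 14 without EG 2 and 18 without EG 4.

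By role, the genes lower in RT as deposited were 9 of 13 in nerve and glia, 6 of 14 in matrix and secreted, 3 of 9 in signals, 2 of 8 in contractile and vessel wall, 8 of 27 without a role, 0 of 22 in vessel lining and 0 of 3 in lipid carriers. After scaling they were 1, 5, 1, 0, 2, 0 and 0 in the same order. Of all genes tested, 39% were lower in RT as deposited and 6.37% after scaling, so a count near those shares is not particular to its role. At an unadjusted limma p under 0.05, 2 of the 22 vessel lining genes and 0 of the 3 lipid carriers were lower as deposited, and 0 of either after scaling. No share over all genes was computed for this limit. The median log2 difference of the nerve and glia genes was -1.19 as deposited and -0.97 after scaling. That of the vessel lining genes was -0.17 and changed sign to 0.13 after scaling. Whether the roles differ from each other was not tested, because the roles were assigned with the values known.

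Of the genes lower in RT, CLEC3B had the smallest adjusted p, with a log2 difference of -3.10 ± 0.42 (SE, limma adjusted p = 0.000176). ANG was lower in RT by 2.17 ± 0.39 on the log2 scale (limma adjusted p = 0.00125) and COL28A1 by 1.48 ± 0.27 (limma adjusted p = 0.00128). COL28A1 was at 1.12, 3.05, 1.54 and 2.79 RPKM in EG and at 0.467, 0.260, 0.258, 0.765 and 0.307 RPKM in RT. THBS2 was lower in RT by 2.39 ± 0.49 (limma adjusted p = 0.00263) and NRN1 by 1.80 ± 0.38 (limma adjusted p = 0.00300). All 5 were still called after scaling, as were CHRDL1, MFAP5, S100A1 and FAM129C. These 9 kept their calls under all alternatives run in which they were tested, apart from S100A1. It lost its call without RT 3 and RT 5 (limma adjusted p = 0.0509). NRN1, MFAP5 and FAM129C were not tested with only EG and RT in the fit. They passed the filter of 1 RPKM in 3 libraries only with PIS or IS libraries counted, where they are higher.

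The nerve and glia genes among the 28 were less secure, with NRN1 alone still called after scaling. PMP2 had a log2 difference of -2.18 (limma adjusted p = 0.0292), but lost its call after scaling (0.105), without EG 2 (0.0869), EG 4 (0.0893) or RT 3 (0.0628), and without RT 3 and RT 5 together (0.0978). FOXD3 (-1.19, limma adjusted p = 0.0187) lost its call after scaling (0.104), without EG 2 (0.0669) and without RT 3 and RT 5 (0.0906). FOXD3 also passed the filter only with PIS or IS libraries counted, where it is higher, and was not tested with only EG and RT in the fit. EG 2 and EG 4 are the EG libraries with high levels of PMP2. SFRP2 was lower in RT than in EG by 1.87 on the log2 scale (limma adjusted p = 0.0138), and missed the threshold after scaling (0.0962).

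**Figure D4:**
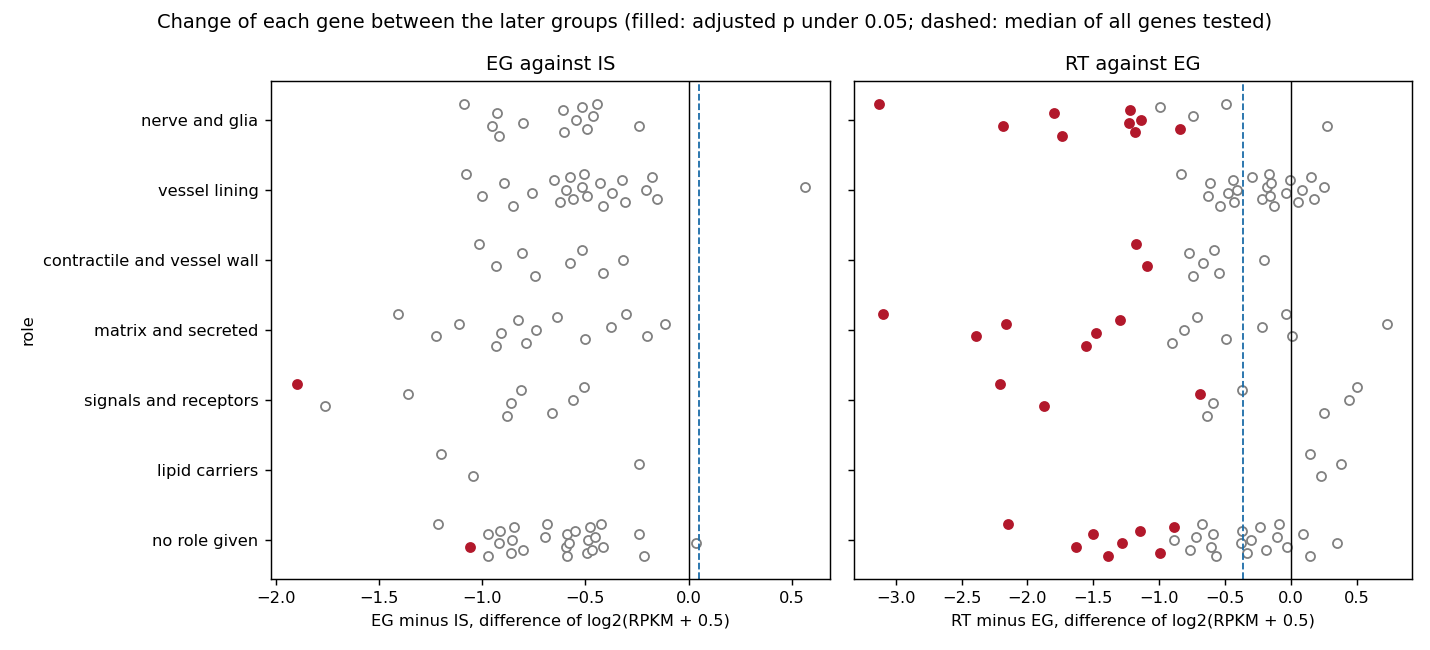
Each point is 1 of the 96 genes, placed by role and by its difference of log2(RPKM + 0.5) between EG and IS (left) or RT and EG (right), filled where the limma adjusted p is under 0.05, with a dashed line at the median of all genes tested. On the left 2 points are filled and 94 of 96 lie below 0; on the right the filled points are in every role except vessel lining and lipid carriers.

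Lists of cell type and pathway genes place the 96 in a wider setting. The endothelial list had 13 of 35 measured genes meeting the rule, set-aside names included, and 29 of the 35 had their highest group median in PIS. The nerve and Schwann list had 5 of 23 and 15 of 23, and the smooth muscle and mural list 5 of 29 and 17 of 29. Over all 13879 symbol-named genes, set-aside names included, 0.749% met the rule. The share of all genes with their highest group median in PIS was not computed, so those counts are description only. The fibroblast and matrix list had 4 of 27 (MFAP5, CLEC3B, CD34 and SFRP2) and 18 of 27, with CD34 counted under vessel lining by role. Its summed RPKM did not set PIS apart, at 6252 to 9735 in PIS, 4552 to 11921 in IS, 3772 to 6086 in EG and 6943 to 44487 in RT. The skeletal muscle, leukocyte, gland, motile cilia, cartilage and bone, cell cycle, complement and chemokine, retinoid and steroid, circadian and red blood cell lists had no gene meeting the rule. The adipocyte list had only a set-aside name, CFD. Its summed RPKM was 196 to 777 in PIS, 127 to 242 in IS, 41.9 to 96.7 in EG and 29.9 to 54.0 in RT. CFD, a complement protease made by fat cells, made up most of the PIS sums, at 172 to 757 RPKM, while ADIPOQ and PLIN1, defining genes of fat cells, were at 0.150 RPKM or less in every PIS library.

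Summed over the list, endothelial genes were at 226.5 to 493.5 RPKM in PIS, 165 to 243 in IS, 115 to 233 in EG and 80.4 to 218.5 in RT. Smooth muscle and mural genes were at 609.6 to 955 RPKM in PIS, 457 to 635 in IS, 343 to 445 in EG and 203 to 355 in RT. Nerve and Schwann genes were at 137 to 673 RPKM in PIS, 109 to 265 in IS, 79.99 to 162 in EG and 78.2 to 125 in RT. In all 3 lists PIS and IS overlapped, through PIS 4 for the first 2 lists and PIS 1 and PIS 2 for the nerve list.

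**Figure D5:**
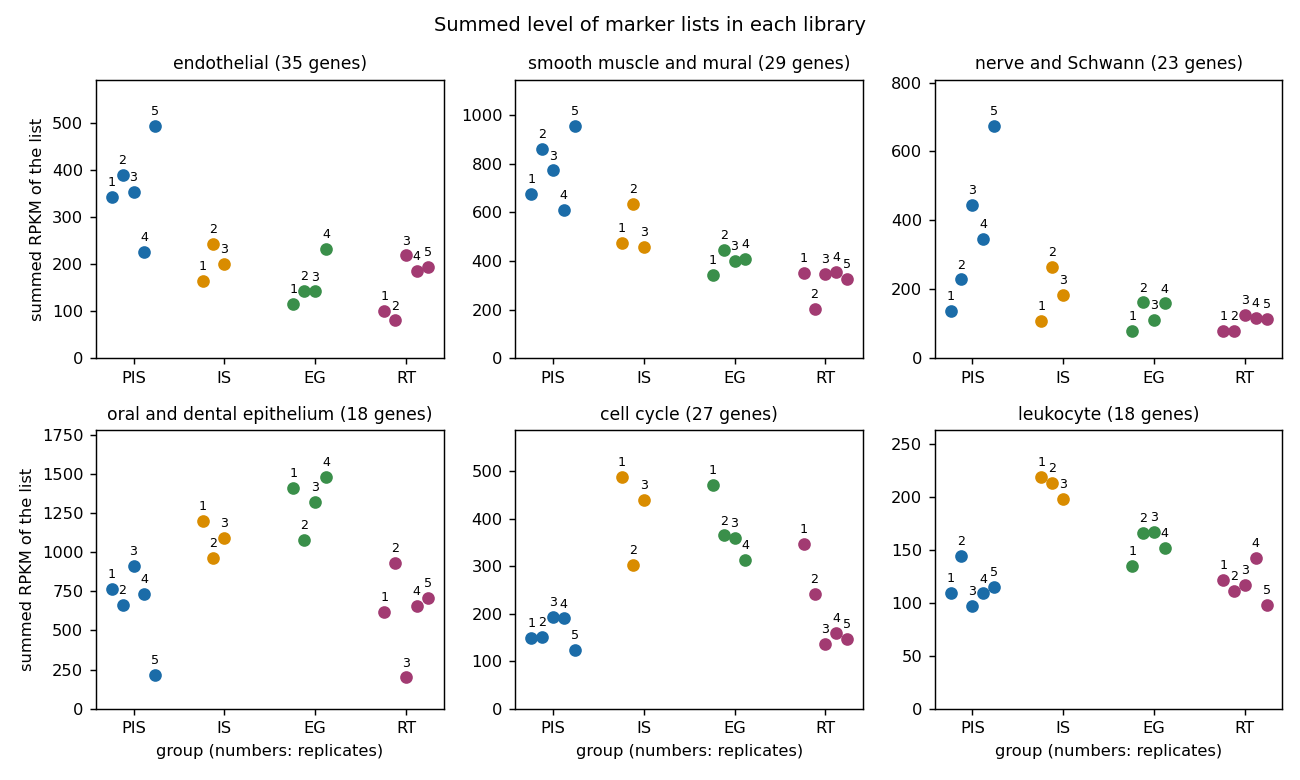
Summed RPKM of 6 marker lists in each library, with points coloured by group and numbered by replicate; each vertical axis starts at 0. PIS 5 is highest for the endothelial, mural and nerve lists and has the lowest epithelium sum of the dental lamina libraries (218), and cell cycle sums in PIS (124 to 194) lie below all IS and EG sums.

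Between EG and RT, the nerve and Schwann list held genes called in both directions. Of 19 genes tested, 7 were lower and 3 higher in RT as deposited, and 2 were lower and 3 higher after scaling. Over all genes tested, 39% were lower and 4.89% higher as deposited, and 6.37% were lower and 9.38% higher after scaling. The 7 lower genes are near the share of all genes, so nothing is read from their number. NEFM and STMN2, genes of neurons, were among the 3 higher genes. FOXD3, of the neural crest and early Schwann lineage, was among the 7 lower genes, though not among the 2 after scaling. NRN1, NTM, CHGB and NXPH2, in the nerve and glia role but not on this list, were lower in RT. Their log2 differences were -1.80, -1.23, -0.84 and -1.14, and only NRN1 was still called after scaling. Genes of neurons are thus not shown to be higher in RT as a group. NEFM, a neurofilament subunit of axons, was at 0.839, 0.295, 0.491 and 0.204 RPKM in EG and at 2.07, 8.74, 7.92, 4.44 and 3.79 RPKM in RT, without overlap. Its log2 difference was 2.52 ± 0.31 (limma adjusted p = 8.00e-05), and it was at 0.272 RPKM or less in every PIS library. NEFM did not meet the median rule and was added to the single-gene results by name. The RT libraries, where NEFM is high, were enough to pass the filter of 1 RPKM in 3 libraries. No EG or PIS library reached 1 RPKM. Without a filter on low values, the limma adjusted p of NEFM was 0.000186. Of the 34 endothelial genes tested, 1 was higher in RT (PLVAP) and 2 were lower (EGFL7 and CALCRL) as deposited. Their median log2 difference was -0.03, against -0.37 for all genes tested. After scaling, 1 was higher and 1 lower. Of 17 WNT antagonists tested, 11 were lower and 1 higher in RT as deposited, against 39% and 4.89% of all genes tested. After scaling, 4 were lower and 1 higher, against 6.37% and 9.38% of all genes tested.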

How the data were processed

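Expression values were used as deposited by the authors, in RPKM per gene. The tools, per the submitters' processing notes, included Partek 3 and TopHat2 2.1.0, without a stated role. Genome build, annotation and strand setting: not given in the sources used here. No positions are printed for that reason, and reads of overlapping, antisense or near-identical genes cannot be told apart. Names such as DES.1 are those of the table. Titles and descriptions gave the groups, and all 17 columns matched a sample. A further label field that gives pre-initiation for all samples was not used. Depth was 9667270 to 37747400 alignments, and no read counts were rebuilt, so no counting intervals are given.

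The 96 genes were selected by the median rule in Python 3.11.15 (pandas 2.3.3, numpy 2.4.6, matplotlib 3.10.9 for figures). The genes, the 22 marker and pathway lists and the tests were chosen with earlier results of these data known, and the roles were assigned after the values were seen, so counts by role and list are descriptions. EG versus IS was fitted in the 12 dental lamina libraries and RT versus EG in all 17, with limma 3.58.1 (R 4.3.3; group means, trend) on log2(RPKM + 0.5). A gene was tested if 3 or more libraries of the fit reached 1 RPKM. Calls were made at an adjusted p under 0.05 (Benjamini-Hochberg, over all genes tested). The fits were also run on simulated data, with independent noise and with the spread of each gene capped at the median spread. Such data are less variable than the real values and hold no shifts shared by many genes of a library, so they do not show how the fits handle these. Named genes were the 24 greatest ratios, the 10 highest PIS medians, list members, up to 5 called genes per direction and the 3 genes on either side of the ratio, and others were named after their values were seen. Of the 96 symbols, 81 matched the RefSeq gene table (rAllMis1), which was used only for gene order. Some genes that the rule names are not reported here, and 3 of the 96 are not drawn in the heat map. Count-based tests were not run because the values are RPKM.

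Alternatives were other pseudocounts, filters, scalings, array weights, sets of libraries, a replicate block, other thresholds of the median rule and the omission of single libraries. Leaving out RT 3 and RT 5 together, and IS 2 and EG 1 together, was chosen after seeing the data.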

Additional observations from a re-analysis of the deposited data

Results flagged for a closer look

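In 120 sets of libraries of 1 group (PIS, EG or RT), the most extreme library was compared with its nearest neighbour by Dixon's gap. Each set held the values of 1 named gene or marker list. IS, with 3 libraries, was not screened. In 3 sets the gap was large, where chance gives about 1 in 20. LMOD1 in EG 1 was 0.341 RPKM, with the nearest EG library at 1.5 RPKM (gap over range 0.912). FOXD3 in PIS 5 was 13.7 RPKM, with the nearest PIS library at 5.73 RPKM (0.717). The summed smooth muscle and mural list in RT 2 was 202.7 RPKM, with the nearest RT library at 325.2 RPKM (0.806).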

How the results depend on the processing

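The number of genes meeting the rule moved with its settings: 176 after median-ratio scaling, 178 after quantile normalization, 217 at a ratio of 1.5, 28 at a ratio of 3 and 56 at a PIS median of at least 8 RPKM. Leaving out single libraries gave 66 (without IS 1) to 122 genes (without PIS 4 or IS 2), and 45 of the 96 were kept whichever library was left out. Without IS 2 and EG 1 it was 118, of which 91 were among the 96.

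For EG versus IS, where 2 genes were called, the number was 1 without a filter, 1 after median-ratio scaling, 55 with array weights (1 of them higher), 5 with only these 2 groups in the fit, 5 without PIS 4 and PIS 5, 0 with all 17 libraries in the fit and 0 to 3 when single libraries were left out. For RT versus EG, where 28 were called, it was 12 among genes with a mean of at least 5 RPKM, 9 after median-ratio scaling, 10 after quantile normalization, 17 with only these 2 groups in the fit, 13 without RT 3 and RT 5, and 14 to 33 when single libraries were left out. All of these were lower in RT except 1 gene without RT 2, and array weights gave 33 calls, 3 of them higher. The lower numbers under the filter and the 2-group fit come with fewer of the 96 tested (41 and 76). Otherwise the cause was not tested. Over 31 single-gene results and 859 alternative values, 729 kept the call and 0 changed sign. The 31 are results already called in the main fit, that of NEFM among them. Other filters, and leaving out libraries of groups outside the comparison, leave the log2 difference unchanged. Those alternatives could not change its sign.

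With the replicate number as a block, 4 genes were called for EG versus IS and 35 for RT versus EG. Same-numbered libraries correlated at 0.0860 to 0.237 between IS and EG and at -0.223 to 0.305 between EG and RT. Only IS 1 and EG 4 correlated best with their own number. With so few libraries, this cannot tell whether same-numbered libraries share an animal or a batch. Depth was lowest in PIS 3, and genes listed at 0 in RT give no fold.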
